A study of Mus musculus with 4 samples.

Results

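Glucose is broken down, made and stored in the liver by 3 connected routes, and the 39 genes described here encode their enzymes, glucose carriers and close regulators. They were taken from a fixed list, matched by symbol to the authors' gene names, with 1 probe set per gene, the brightest over the 4 arrays. All 39 of 39 listed genes were found, among 29432 genes tested. They were sorted by role into 6 branches: gluconeogenesis (7 genes), the glycolytic steps that run in a single direction together with the Pfkfb regulators (10), the reversible steps that both directions share (7), lactate dehydrogenase (2), glycogen (8), and transport, fructose entry and regulators (5).

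The liver samples came from untreated C57BL/6 mice aged 8 weeks that had free access to food and were killed near midday. The KO animals (2) were labelled as Gdown1 knockouts and the FF animals (2) as controls, each animal being measured on its own Affymetrix MoGene 2.0 ST array. The header of the authors' fold change table names the sides Alb-cre and f/f, the usual short names for Cre under the albumin promoter, active in hepatocytes, and for a floxed gene. The labels describe no mice with Cre but without the floxed gene, so an effect of Cre itself and an effect of losing Gdown1 cannot be told apart. The targeted gene, Polr2m, which encodes the RNA polymerase II partner Gdown1, lay at 6.35 and 6.18 (log2) in KO livers, against 7.35 and 7.38 in FF livers. In log2 units it fell by 1.10 ± 0.12 (SE), with a limma adjusted p of 0.0215.

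Glycolysis turns glucose into pyruvate, and gluconeogenesis rebuilds glucose from lactate, amino acids and glycerol by the same reversible enzymes plus a few bypass enzymes at the steps that cannot run backwards. In hepatocytes the flow between these routes is set by hormones, by the supply of glucose and by regulatory proteins that act on the enzymes. The liver stores glucose as branched glycogen after meals and releases it between meals, and most of these steps have a liver form that differs from the form used in muscle, brain or blood cells.

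Of the 39 genes, 0 rose, 3 fell and 36 did not pass the test across all genes. The genes that fell were Gckr, Pfkfb1 and Gbe1, to between 46.1% and 47.9% of the FF level. Over all 29432 genes limma called 1.77% at an adjusted p under 0.05, of which 0.996% rose and 0.778% fell, and among the 39 genes it called 7.69%. A share of 3.37% was called among the 15260 genes brighter than the background guide, a level of 2.82 under which 95% of 1127 olfactory receptor genes lay. Of the 39 genes, 38 lay above that guide, Fbp2 being the exception. The smallest change called anywhere in the data was 0.72 on the log2 scale, so smaller changes of these genes were not resolved with 2 animals per genotype.

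**Figure D1:**
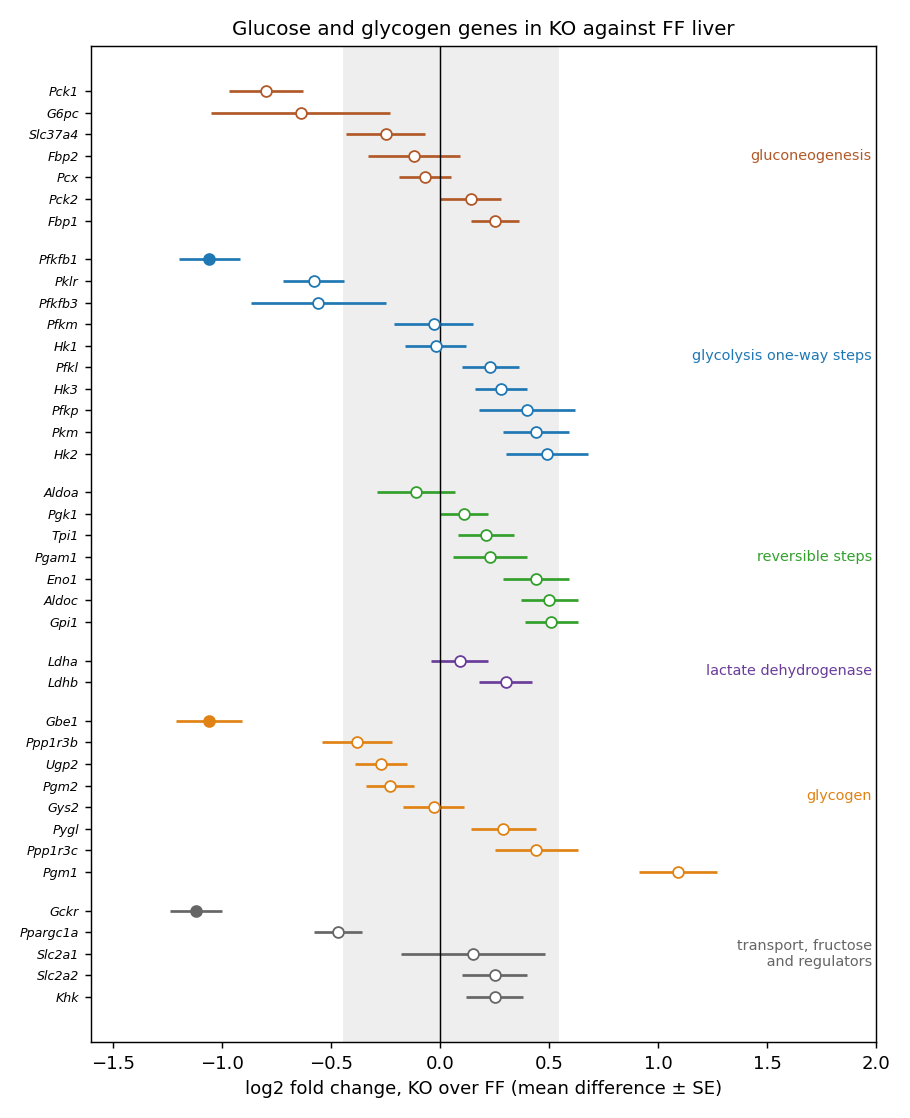
The x axis shows the log2 fold change of KO over FF for each of the 39 genes, with 1 SE to each side, sorted within 6 branches from lowest to highest. Filled points passed the limma adjusted p of 0.05 over all genes, and the grey band spans the 5th to 95th percentile of all genes, from -0.44 to 0.54; Gckr, Pfkfb1 and Gbe1 lie below the band and Pgm1 above it.

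The promoter windows of the 3 genes that fell, as RefSeq gives them for GRCm38.p6, are shown first because these are the members that passed. A window runs from about 250 bases before a transcript start to 50 bases after it and is written 5′ to 3′ on the gene's own strand. The windows were searched for 4 short motifs on both strands: CACGTG, the box that carbohydrate response elements hold in pairs; ACGTG, the core of hypoxia response elements; TGACGTCA, the full cAMP response element; and TATAAA, the TATA box. Capitals mark the matches, and every CACGTG also counts as a match of ACGTG. Pfkfb1 has 4 windows, and the 1 with a match is printed. The windows printed for Gckr and Pfkfb1 belong to transcript starts inside the annotated gene and lie wholly within it.
Gckr, chr5:31297313-31297612, plus strand: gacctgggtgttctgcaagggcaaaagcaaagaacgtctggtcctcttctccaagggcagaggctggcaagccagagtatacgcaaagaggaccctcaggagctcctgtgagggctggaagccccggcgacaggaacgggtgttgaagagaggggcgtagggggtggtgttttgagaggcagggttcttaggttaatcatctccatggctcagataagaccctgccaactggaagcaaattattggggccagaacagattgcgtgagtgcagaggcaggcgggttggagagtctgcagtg
Gbe1, chr16:70313699-70313998, plus strand: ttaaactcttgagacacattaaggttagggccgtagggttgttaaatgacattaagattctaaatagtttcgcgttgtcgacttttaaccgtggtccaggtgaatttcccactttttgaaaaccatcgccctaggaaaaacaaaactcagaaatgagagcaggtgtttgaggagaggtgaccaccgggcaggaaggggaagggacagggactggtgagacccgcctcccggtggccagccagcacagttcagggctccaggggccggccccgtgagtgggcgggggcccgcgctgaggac
Pfkfb1, chrX:150589666-150589965, plus strand: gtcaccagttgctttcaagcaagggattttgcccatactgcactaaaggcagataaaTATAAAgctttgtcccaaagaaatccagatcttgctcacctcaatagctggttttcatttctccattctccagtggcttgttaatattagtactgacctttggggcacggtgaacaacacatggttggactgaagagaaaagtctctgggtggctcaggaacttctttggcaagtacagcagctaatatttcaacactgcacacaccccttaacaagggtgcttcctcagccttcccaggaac
The windows of Gckr and Gbe1 held none of the 4 motifs, and only 1 of the 6 windows of these genes held any, a TATAAA in Pfkfb1. TATAAA stood in 13.6% of all 32851 windows in the table.

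Control of glucose entry held the member with the smallest adjusted p. Gckr, on chromosome 5 from 31297266 to 31327302, encodes a regulatory protein of hepatocytes that restrains the first phosphorylation of glucose. It lay at 6.87 and 6.88 in KO livers, against 8.06 and 7.92 in FF livers. Both KO values lay more than 1 log2 unit below both FF values, and the KO arrays were almost equal. Gckr fell by 1.12 ± 0.12 (SE) on the log2 scale, with a limma adjusted p of 0.0198.

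Hk1, Hk2 and Hk3, the hexokinases with a high affinity for glucose that serve most other tissues, were dim on all arrays. They had KO means of 2.88, 3.30 and 3.08 and FF means of 2.89, 2.81 and 2.81, close to the guide of 2.82. None passed, with log2 fold changes of -0.02 for Hk1, 0.49 for Hk2 and 0.28 for Hk3. The KO arrays of Hk2, at 3.47 and 3.12, lay above the FF arrays, at 2.61 and 3.01. A change measured this close to background can understate a true change, and the levels of different probe sets cannot be set against each other on these arrays.

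**Figure D2:**
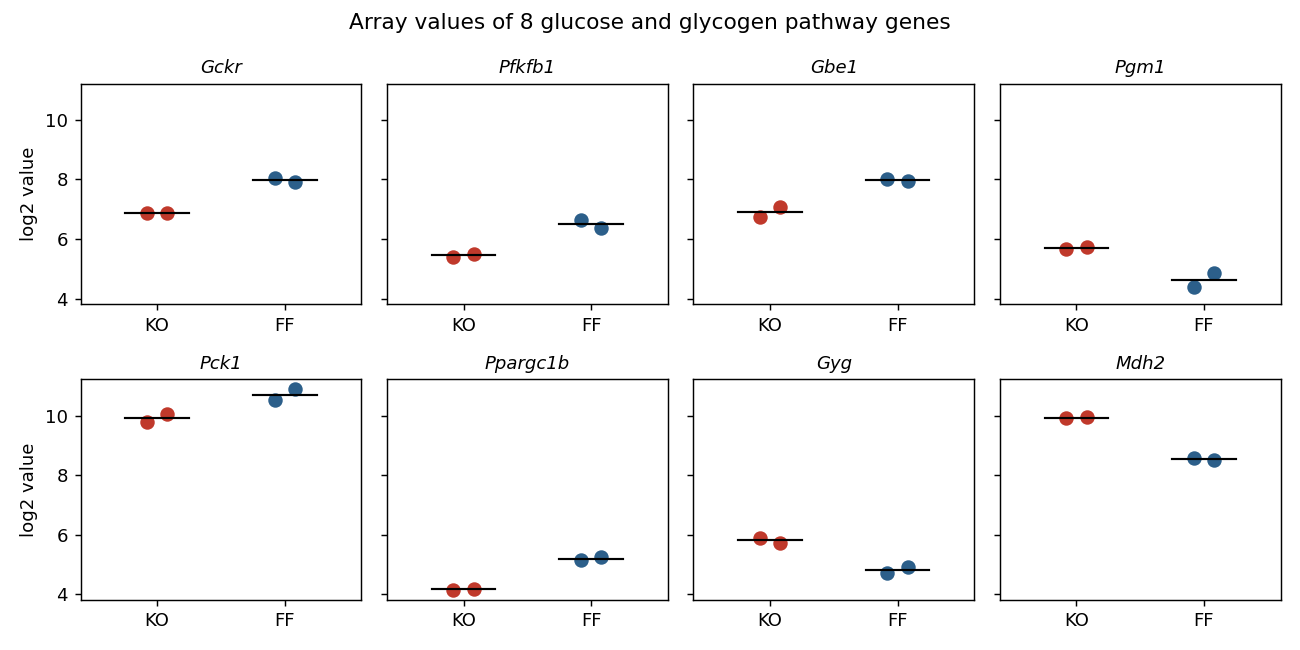
Each panel shows the log2 value of a gene on the 2 KO arrays (left) and the 2 FF arrays (right), with the group mean as a bar, on a common y axis. In all 8 panels the groups do not overlap, but the genes were picked for large changes after their values were seen. Over all genes 46.6% did not overlap. Gckr, Pfkfb1, Gbe1, Pck1 and Ppargc1b lie lower in KO, and Pgm1, Gyg and Mdh2 lie higher in KO.

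Phosphofructokinase commits sugar to glycolysis, and its strongest activator is a fructose bisphosphate made and removed by the Pfkfb enzymes. Pfkfb1, the liver form on the X chromosome from 150587445 to 150643878, lay at 5.39 and 5.51 in KO livers, against 6.65 and 6.38 in FF livers. Pfkfb1 fell by 1.06 ± 0.14 (SE, log2), with a limma adjusted p of 0.0319. The groups stood clearly apart, the gap between them being larger than the spread inside either. Pfkfb3, an inducible form known from proliferating and hypoxic cells, was at 4.76 and 5.71 in KO livers, against 5.92 and 5.67 in FF livers. Its groups overlapped, and its log2 fold change of -0.56 (95% interval -1.32 to 0.21) rested on KO replicate 1, being -0.08 without that array.

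The phosphofructokinase subunits themselves did not pass. Pfkl, the liver subunit, had a log2 fold change of 0.23, with 5.31 and 5.08 in KO livers against 4.99 and 4.95 in FF livers. Pfkm, the muscle subunit, was at -0.03 and Pfkp, the platelet subunit, at 0.40. Pfkp was higher on KO replicate 1, at 4.26, than on KO replicate 2, at 3.61, against 3.56 and 3.51 in FF livers.

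Pyruvate kinase closes glycolysis, and its liver form and its other form had fold changes of opposite sign. Pklr, the liver and red cell form, lay at 8.10 and 8.38 in KO livers, against 8.75 and 8.87 in FF livers. Pkm, the form of most other tissues, lay at 6.14 and 5.82 in KO livers, against 5.53 and 5.55 in FF livers. Neither group pair overlapped. The log2 fold changes were -0.58 ± 0.14 (SE) for Pklr and 0.44 ± 0.15 for Pkm, and neither passed over all genes (limma adjusted p = 0.127 and 0.212). Taken as the change of Pkm minus that of Pklr within an array, relative to the FF mean, the values were 1.32 and 0.71 in KO livers and 0.05 and -0.05 in FF livers. This difference was not tested.

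The bypass enzymes of gluconeogenesis had no called gene among 7. Pck1, the cytosolic carboxykinase that makes phosphoenolpyruvate and is induced by fasting, lay at 9.77 and 10.04 in KO livers, against 10.52 and 10.88 in FF livers. The KO pair lay wholly below the FF pair, at a log2 fold change of -0.80 ± 0.17 (SE), which missed the threshold (limma adjusted p = 0.0966). G6pc, the glucose phosphatase that frees glucose for export, lay at 9.30 and 9.64 in KO livers, against 9.46 and 10.77 in FF livers. The FF animals differed by 1.30 in this gene, more than the genotypes did. Its log2 fold change of -0.64 (95% interval -1.66 to 0.37) was 0.01 without FF replicate 2 and -1.29 without FF replicate 1.

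The remaining gluconeogenic genes stayed within 0.25 of no change. Fbp1, the liver fructose bisphosphatase, lay at 10.46 and 10.52 in KO livers, against 10.24 and 10.25 in FF livers, a log2 fold change of 0.25. Pcx, the mitochondrial carboxylase that starts the route from pyruvate, was at -0.07 (95% interval -0.37 to 0.23). Slc37a4, which carries glucose phosphate into the endoplasmic reticulum to meet the phosphatase, was at -0.25, and Pck2, the mitochondrial carboxykinase, at 0.14. Fbp2, the muscle bisphosphatase, was at -0.12, at a mean level below the guide.

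Ppargc1a, a coactivator that switches on gluconeogenic genes in fasting, lay at 5.69 and 5.67 in KO livers, against 6.18 and 6.12 in FF livers. Each pair was tight and the pairs did not overlap, but the log2 fold change of -0.47 ± 0.11 (SE) did not pass (limma adjusted p = 0.123). Its relative Ppargc1b, which is not among the 39 but stands in a list of 42 measured regulators, lay at 4.16 and 4.17 in KO livers, against 5.15 and 5.26 in FF livers. Ppargc1b fell by 1.04 ± 0.12 on the log2 scale (limma adjusted p = 0.0214).

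The reversible steps had no called gene, and most had a positive log2 fold change in the value table. Of the 7 genes, 6 had a higher mean in KO, and for 5 both KO arrays lay above both FF arrays, a pattern seen in 21.6% of all genes. Gpi1, which interconverts glucose and fructose phosphates, lay at 9.48 and 9.38 in KO livers, against 8.85 and 8.99 in FF livers. Its log2 fold change was 0.51 ± 0.12 (SE), with a limma adjusted p of 0.123. Aldoc, the aldolase of brain that liver also contains, lay at 6.38 and 6.55 in KO livers, against 6.05 and 5.88 in FF livers, at 0.50 ± 0.13 (limma adjusted p = 0.142).

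Eno1, the common enolase, lay at 3.82 and 3.50 in KO livers, against 3.26 and 3.19 in FF livers, a log2 fold change of 0.44. Pgam1, Tpi1 and Pgk1, the mutase, isomerase and kinase of the triose part of the pathway, were at 0.23, 0.21 and 0.11, and Aldoa, the muscle aldolase, at -0.11. The median of the 7 genes was 0.23 in the value table but 0.00 in the authors' deposited table, where only 1 of the 7 had the same sign, 4 had the opposite sign and 2 showed no difference. Aldoc had a log2 difference of -0.19 and Eno1 of -0.03 in the authors' deposited table, opposite to the values above. Aldoa, Pgam1 and Eno1 belong to gene families with processed copies elsewhere in the genome, and probes shared with such copies would make their values uncertain.

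Lactate dehydrogenase links pyruvate to lactate, which the liver takes up as a source of glucose. Ldha lay at 4.10 and 4.09 in KO livers, against 3.90 and 4.12 in FF livers, with overlapping groups and a log2 fold change of 0.09 (95% interval -0.23 to 0.41). Ldhb lay at 3.50 and 3.62 in KO livers, against 3.21 and 3.31 in FF livers, at 0.30, and did not pass. A promoter window of Ldha, at a start inside the annotated gene, is shown because it held the most matches of the 4 motifs among the 55 windows searched, and the gene's level did not pass the test.
Ldha, chr7:46845554-46845853, plus strand: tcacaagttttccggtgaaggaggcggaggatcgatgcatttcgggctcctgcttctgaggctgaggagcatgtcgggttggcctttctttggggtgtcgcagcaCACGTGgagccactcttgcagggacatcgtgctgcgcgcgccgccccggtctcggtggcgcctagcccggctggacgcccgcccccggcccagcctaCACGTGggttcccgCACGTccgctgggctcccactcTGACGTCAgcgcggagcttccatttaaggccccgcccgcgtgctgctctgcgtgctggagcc
Capitals mark matches as before, with CACGTG at 2 places, a further ACGTG and 1 TGACGTCA. The 55 windows belong to 35 of the genes, all but Pgm1, Pgm2, Gys2 and Ppp1r3b. ACGTG stood in 40% and CACGTG in 12.7%, against 19.6% and 7.15% of all windows. Member windows were richer in G and C, with a median of 57.3% against 52.7% over all windows, and windows of the same gene can overlap, so these shares are a description.

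Glycogen genes included the third called member. Gbe1, on chromosome 16 from 70313949 to 70569720, encodes the branching enzyme, which gives glycogen its soluble branched form. It lay at 6.75 and 7.08 in KO livers, against 8.00 and 7.95 in FF livers. The groups did not overlap, and the KO animals differed more from each other than the FF animals did. Gbe1 fell by 1.06 ± 0.15 (SE, log2), with a limma adjusted p of 0.0362.

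The probe set named Pgm1 had the highest log2 fold change of the 39, at 1.09 ± 0.18 (SE). It lay at 5.67 and 5.74 in KO livers, against 4.39 and 4.85 in FF livers, so the groups did not overlap, and it missed the threshold (limma adjusted p = 0.053, and 0.0347 to 0.136 over the alternatives with all arrays). The probe set named Pgm2 lay at 7.63 and 7.57 in KO livers, against 7.86 and 7.81 in FF livers, at -0.23. Both names stand for phosphoglucomutases, a family that links glycogen to the glucose phosphates, and the part of each gene in this link was not tested. The symbols are not secure, since RefSeq for GRCm38.p6 lists Pgm2 as a synonym of Pgm1 and Pgm1 as a synonym of Pgm2. RefSeq places its Pgm1 on chromosome 4, but all 17 of the nearest numbered probe sets around the one named Pgm1 whose genes have a position belong to chromosome 5. Likewise all 15 around the one named Pgm2 belong to chromosome 4, where RefSeq has its Pgm1. RefSeq has its Pgm2 on chromosome 5, so the names look exchanged, and the higher log2 fold change would then belong to RefSeq Pgm2. The values are therefore given by the name in the authors' table, and no position or promoter is given for either.

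Glycogen synthase and phosphorylase of liver, the enzymes that build and release glucose units, did not pass. Gys2 lay at 9.42 and 9.72 in KO livers, against 9.61 and 9.60 in FF livers, a log2 fold change of -0.03 (95% interval -0.38 to 0.32). Pygl averaged 9.25 ± 0.24 in KO livers and 8.96 ± 0.06 in FF livers (SD, n = 2 each), without overlap, at 0.29. Ugp2, which makes the activated glucose that synthase uses, was at -0.27, with 9.42 and 9.58 in KO livers against 9.75 and 9.78 in FF livers.

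The subunits that bring a phosphatase to glycogen and so activate synthase differed in sign. Ppp1r3b, the form enriched in liver, was at -0.38, with 7.21 and 7.39 in KO livers against 7.85 and 7.51 in FF livers. A second, dimmer probe set of Ppp1r3b was at 0.08. Ppp1r3c was at 0.44 in the value table, with 6.67 and 6.33 in KO livers against 6.27 and 5.86 in FF livers, but had a log2 difference of -0.17 in the authors' deposited table. Neither passed. Of the 8 glycogen genes, 7 had arrays that did not overlap between genotypes, 3 higher and 4 lower in KO; over all genes 46.6% did not overlap, 21.6% with KO above and 25% with KO below.

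Of the glucose carriers, Slc2a2, the main carrier of the hepatocyte membrane, lay at 10.53 and 10.88 in KO livers, against 10.48 and 10.42 in FF livers, a log2 fold change of 0.25 that did not pass. Slc2a1, the carrier of most other cells, lay at 6.34 and 5.29 in KO livers, against 5.71 and 5.62 in FF livers. The KO animals lay on opposite sides of the FF animals, so the log2 fold change of 0.15 changes sign, to -0.38, without KO replicate 1. Khk, which admits dietary fructose to the pathway, lay at 9.93 and 10.12 in KO livers, against 9.70 and 9.85 in FF livers, at 0.25, and did not pass.

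Among the 39 genes 21 had a higher and 18 a lower mean in KO, with a median log2 fold change of 0.11, and 26 had arrays that did not overlap between genotypes, 17 higher and 9 lower in KO. That is 66.7% of them, against 46.6% of all genes, 21.6% with KO above and 25% with KO below. The share without overlap among genes above the guide was not computed. Set side by side, the branches had median log2 fold changes of -0.12 for gluconeogenesis, 0.11 for the glycolytic steps of a single direction, 0.23 for the reversible steps, 0.19 for lactate dehydrogenase, -0.13 for glycogen and 0.15 for transport, fructose and regulators. The median was -0.02 over all genes and 0.03 over the genes above the guide. The means of KO were higher than those of FF for 2 of 7 gluconeogenic genes, 5 of 10 one-direction glycolytic genes, 6 of 7 reversible steps and 3 of 8 glycogen genes. Called genes were spread over 3 branches, 1 each. Differences between branches were not tested. The transport branch had medians of 0.08 on KO replicate 1 and -0.38 on KO replicate 2, relative to the FF mean, so its sign rests on 1 animal. The gluconeogenesis median of -0.12 was 0.01 without FF replicate 2, -0.01 without KO replicate 1 and -0.27 without FF replicate 1. Of the 39 genes, 13 had an unadjusted limma p under 0.05, or 33.3%, against 17% of all genes. Among the genes above the guide, where 38 of the 39 lay, the share was 27.1%. Of the 13 genes, 7 were higher and 6 lower in KO, against 9.38% and 7.6% of all genes.

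**Figure D3:**
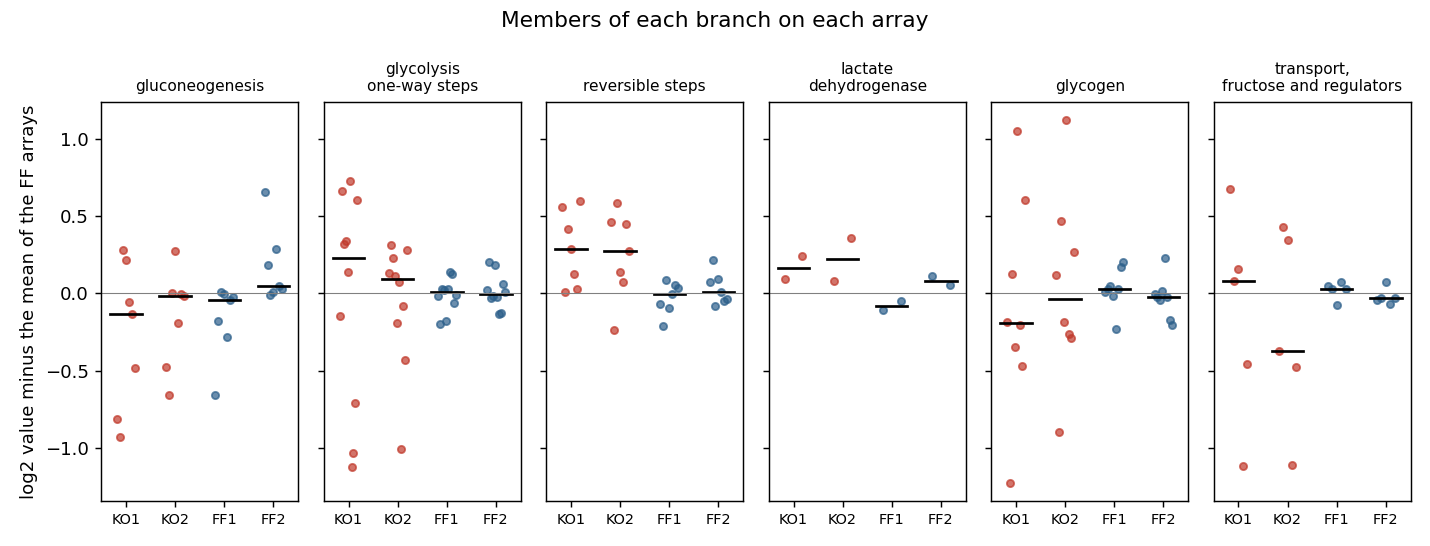
Each point is a gene's log2 value minus its mean on the FF arrays, shown for the KO arrays (red, left) and FF arrays (blue, right) in each of the 6 branches, and bars mark medians. The reversible steps have medians of 0.29 and 0.27 on the KO arrays, while gluconeogenesis has -0.14 and -0.01.

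A second sorting set 10 liver forms against 11 forms best known from other tissues. Liver forms included Gckr and Pfkfb1, so 2 of 10 fell and 0 rose, while 0.778% of all genes fell. All 10 lay above the guide, where 3.37% of genes were called in either direction. By mean, 5 of the 10 were lower in KO, and their median was 0.10, with -0.05 on KO replicate 1 and 0.12 on KO replicate 2. Of the 11 other forms 0 were called, and 3 had an unadjusted limma p under 0.05, all higher in KO (Hk2, Pkm and Aldoc), against 17% of all genes in either direction and 9.38% higher. That is 27.3% of the 11, near the 27.1% of genes above the guide in either direction, and 10 of the 11 lay above it. The median of the 11 forms was 0.15, with 0.32 on KO replicate 1 and 0.07 on KO replicate 2. In the authors' deposited table the medians were -0.05 for liver forms and 0.06 for the others. Pygb, the brain form of glycogen phosphorylase and a gene outside the 39, lay at 6.08 and 5.20 in KO livers, against 4.33 and 4.05 in FF livers, at a log2 fold change of 1.45 ± 0.29 (SE) that missed the threshold (limma adjusted p = 0.0843).

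Whole liver holds other cells than hepatocytes, and in bulk tissue fewer cells of a type and less RNA per cell cannot be told apart. Markers of some of those cells were higher in the same KO livers. Of 7 stellate cell markers all 7 had both KO arrays above both FF arrays, a pattern of 21.6% of all genes, and 2 rose, Reln and Rgs5. Their summed linear signal was 2290 to 2770 in KO livers and 1310 to 1470 in FF livers. All 7 Kupffer cell and macrophage markers likewise lay higher, none called, with sums of 889 to 1290 in KO livers and 634 to 650 in FF livers. For 6 bile duct markers, of which Cftr and Krt7 lay at or below the guide, 5 lay higher and none was called, with sums of 398 to 540 in KO livers and 142 to 228 in FF livers. The bile duct sums came mostly from Spp1, at 8.67 and 8.27 in KO livers against 6.45 and 7.54 in FF livers. Dcn likewise made up most of the stellate sums, at 10.77 and 10.53 in KO livers against 9.95 and 9.71 in FF livers. Of 7 sinusoidal endothelial markers 4 lay higher and none was called, and they summed to 1120 to 1140 in KO livers and 920 to 1010 in FF livers. The 9 measured hepatocyte markers, Alb among them at 12.75 and 12.74 in KO livers against 12.86 and 12.79 in FF livers, included no called gene, had both KO arrays below both FF arrays for 6 (25% of all genes) and above for 2, and summed to 28800 to 29100 in KO livers and 31000 to 31400 in FF livers. The 5 skeletal muscle markers, with Myh4 and Ckm below the guide, summed to 40.4 to 43.8 in KO livers and 40.1 to 45.8 in FF livers. Lymphocyte and neutrophil, erythroid and proliferation markers included no called gene, and 4 of 7, 2 of 4 and 3 of 5 of them lay at or below the guide. Their sums were 66.5 to 104 in KO livers and 63.9 to 66.2 in FF livers for lymphocytes and neutrophils, 202 to 213 in KO livers and 177 to 183 in FF livers for erythroid cells, and 46.8 to 48.8 in KO livers and 34.5 to 37.0 in FF livers for proliferation. The part of other cells in the values of Pkm, Pygb, Aldoc or Hk2 was not tested.

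Beyond the 39 genes, a longer list of 67 measured other genes of the same pathways held 2 that rose, Mdh2 and Gyg. Over all genes 0.996% rose, and 3.37% of those above the guide were called in either direction. Mdh2, the mitochondrial malate dehydrogenase, which moves reducing power and carbon in gluconeogenesis and runs the citric acid cycle, lay at 9.92 and 9.95 in KO livers, against 8.58 and 8.51 in FF livers. Mdh2 rose by 1.39 ± 0.11 (SE, log2), with a limma adjusted p of 0.0104. Gyg, glycogenin, the protein on which a glycogen particle is started, lay at 5.89 and 5.73 in KO livers, against 4.73 and 4.91 in FF livers, and rose by 0.99 ± 0.13 (limma adjusted p = 0.0321). Thus, of the genes that build glycogen, the primer rose, the branching enzyme fell and the synthase did not pass. The windows of the genes that rose are shown because they hold motifs searched, TGACGTCA in Mdh2 and, in Gyg, CACGTG, which also counts as ACGTG.
Mdh2, chr5:135778399-135778698, plus strand: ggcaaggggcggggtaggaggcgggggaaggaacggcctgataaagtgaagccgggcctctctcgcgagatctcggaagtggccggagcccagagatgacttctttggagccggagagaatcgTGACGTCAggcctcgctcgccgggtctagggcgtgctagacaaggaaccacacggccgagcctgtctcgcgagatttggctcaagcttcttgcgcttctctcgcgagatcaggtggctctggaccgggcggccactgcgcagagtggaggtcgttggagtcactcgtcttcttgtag
Gyg, chr3:20155067-20155366, minus strand: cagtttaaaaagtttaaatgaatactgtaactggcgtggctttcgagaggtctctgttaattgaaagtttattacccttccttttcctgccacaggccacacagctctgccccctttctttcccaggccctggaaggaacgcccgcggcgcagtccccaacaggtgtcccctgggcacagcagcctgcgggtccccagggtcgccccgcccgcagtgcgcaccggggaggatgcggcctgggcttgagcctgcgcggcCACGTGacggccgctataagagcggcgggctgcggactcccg
Of all windows, 1.79% held TGACGTCA, 7.15% CACGTG and 19.6% ACGTG. The presence of these letters says nothing about whether a factor binds there.

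Slc16a1 and Pdk4, picked after their values were seen, had changes of similar size without passing. Slc16a1, a carrier of lactate and pyruvate, lay at 8.35 and 8.63 in KO livers, against 7.13 and 7.65 in FF livers, at a log2 fold change of 1.10 (limma adjusted p = 0.071). Pdk4, the kinase that shuts pyruvate out of the citric acid cycle in fasting, lay at 5.54 and 4.99 in KO livers, against 3.81 and 4.60 in FF livers, at 1.07 (limma adjusted p = 0.163).

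Of the 42 measured regulators, 1 rose and 1 fell, a share of 4.76%, against 1.77% of all genes and 3.37% of those above the guide, where all 42 lay. Besides the fall of Ppargc1b, the tumour suppressor gene Trp53, whose protein also restrains glycolysis, rose by 0.85 ± 0.12 (SE; limma adjusted p = 0.0362). The regulators with the largest changes otherwise were Myc, which drives growth and glycolytic genes, at -1.73, Srebf1, through which insulin raises lipogenic genes, at -1.32, and Ppargc1b. Srebf1 lay at 5.91 and 5.34 in KO livers, against 7.19 and 6.69 in FF livers, without overlap (limma adjusted p = 0.072). Myc lay at 5.51 and 4.47 in KO livers, against 7.28 and 6.16 in FF livers, without overlap but with a gap of over 1 log2 unit inside each group (limma adjusted p = 0.143). Mlxipl, also picked after its values were seen, the glucose-responsive factor that acts on Pklr, had a log2 fold change of 0.55, opposite in sign to that of Pklr, and did not pass (limma adjusted p = 0.124).

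In the authors' deposited table, which holds group averages only, 29 of the 39 genes had the same direction as above, 8 the opposite and 2 no difference. Of all 29432 genes, 17736 had the same direction, 10434 the opposite and 1249 no difference there. The called genes were further apart there, with log2 differences of -1.33 for Gckr, -1.53 for Pfkfb1 and -1.38 for Gbe1. The authors' deposited table has 6 of the 39 genes at 2-fold or more, all lower in Alb-cre, against 4 in the value table, where 1.96% of all genes reached it. Those 6 add Pck1 at -1.21, G6pc at -1.12 and Pfkfb3 at -1.34 to the called genes. The share of all genes at 2-fold in the authors' deposited table was not computed, so these 6 have no baseline there. Pgm1, with a log2 difference of 0.90 in the authors' deposited table, is at 2-fold only in the value table.

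**Figure D4:**
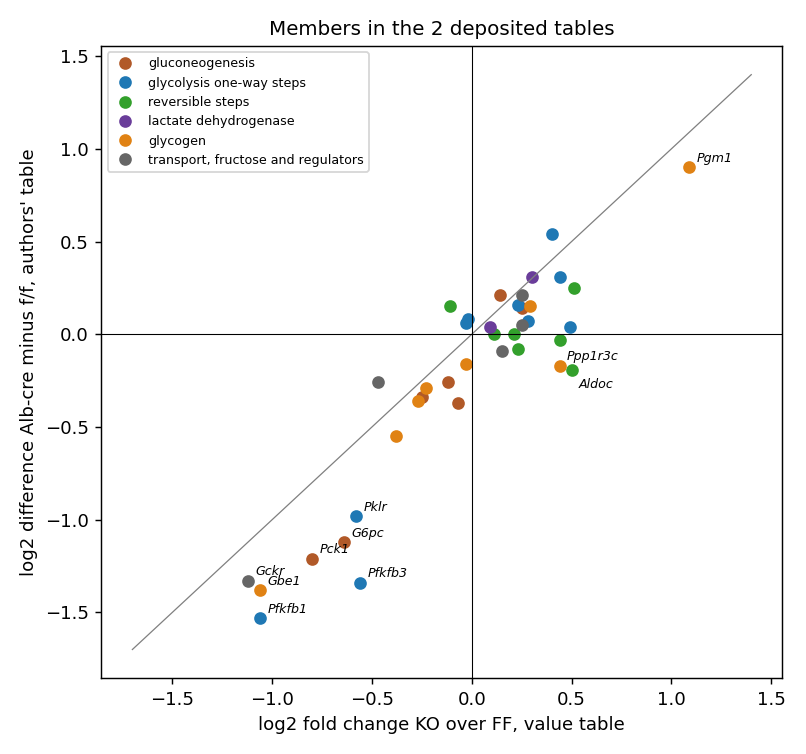
Each point is a member gene, with its log2 fold change of KO over FF from the value table on the x axis and the log2 difference of Alb-cre minus f/f in the authors' deposited table on the y axis; the line marks equal values. Gckr, Pfkfb1 and Gbe1 lie at the lower left below the line, and Aldoc and Ppp1r3c lie on opposite sides of 0 in the tables.

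The calls rest on few arrays. Leaving out any single array ended the calls of Gckr, Pfkfb1 and Gbe1, with limma adjusted p from 0.152 to 0.377 over these genes, while their log2 fold changes stayed between -1.23 and -0.89. With an array left out limma called 0 genes in all, so the calls of Mdh2, Gyg, Ppargc1b and Trp53 ended too.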

How the data were processed

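The deposited value table holds log2 values per probe set and array. The authors used RMA and Affymetrix Expression Console to make them, per the submitters' processing notes, on MoGene-2_0-st arrays with an mm10 annotation, per the file headers. RMA equalises the distributions of all arrays, so a change in total RNA cannot be seen. A table of comparisons, deposited beside it, holds per the file headers a log2 average for Alb-cre and for f/f and a signed fold change, here treated as a score that the authors computed from those averages. Nothing used here states how these averages were reached, and the table has no p-values. Its symbols named the probe sets: 29945 of 41345 had 1 symbol, which gave 29432 genes, each by its brightest probe set. Of the 39 genes, 2 had 2 probe sets.

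Genes were tested with lmFit and eBayes of limma 3.58.1 (R 4.3.3) at default settings, as KO minus FF, with no block and no filter, with Benjamini-Hochberg adjustment over all genes and a threshold of 0.05. The fit had 2 residual and 3.79 prior degrees of freedom and was tested on simulated data. Errors after ± are limma standard errors, and 95% intervals are limma's, unadjusted. Groups came from the labels, which call the animals of a group biological replicates and give no batch. The number of arrays limits the precision.

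The members and lists were chosen with earlier results of these data known. Array values were to be given for members that passed or had an unadjusted p under 0.05, for the largest change per branch, and for G6pc, Pck1, Pklr, Gys2, Pygl and Slc2a2; other members' values were added after they were seen. Genes outside the 39 are named where they passed or were among the 3 largest changes of their list, with exceptions given in the text; 1 gene of those lists is not reported here. Alternatives were the replicate block, averaging probe sets, cyclic loess, trended and robust variances, a filter that dropped the 50% of dimmer genes, median centring, testing all probe sets, a threshold of 0.1, leaving out each array, and the authors' table.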

Additional observations from a re-analysis of the deposited data

How the results depend on the processing

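The counts of called genes moved most. The 522 genes called in all became 30 with the replicate number as a block, 42 probe sets with all of them tested, 850 without the 50% of dimmer genes, 1235 at an adjusted p under 0.1, and 0 to 0 without any single array (limma, 3364 to 3958 at an unadjusted p under 0.05; the lone array left in a group was assumed to vary like the other group). The 3 called members became 0 with the replicate block, 0 with all probe sets tested, 5 at an adjusted p under 0.1 and 0 to 0 without any single array. The labels do not say whether equal replicate numbers pair the animals. Deviations of equally numbered KO and FF arrays correlated at -0.00639 across genes, which cannot show whether animals were paired. Under the block the log2 fold changes of the called members were unchanged, at -1.12 for Gckr and -1.06 for both Pfkfb1 and Gbe1. This follows from the layout, since each replicate number holds a KO and an FF array. The block also uses up a residual degree of freedom, of which the main fit had 2. The part of this in the lost calls was not tested. The other settings with all arrays left the member calls at 3 or, with Pgm1, 4. With any single array left out, branch medians ran from -0.27 to 0.01 for gluconeogenesis, 0.10 to 0.23 for one-direction glycolysis, 0.27 to 0.31 for reversible steps, -0.19 to -0.03 for glycogen, -0.38 to 0.17 for transport, fructose and regulators, 0.11 to 0.27 for lactate dehydrogenase, -0.05 to 0.12 for liver forms and 0.07 to 0.32 for other forms. In the authors' deposited table they were -0.34 for gluconeogenesis, 0.00 for reversible steps, -0.23 for glycogen, -0.09 for transport, fructose and regulators, -0.05 for liver forms and 0.06 for other forms. There, 8 genes turned sign: Hk1 to 0.08, Pfkm to 0.06, Aldoa to 0.15, Aldoc to -0.19, Pgam1 to -0.08, Eno1 to -0.03, Ppp1r3c to -0.17 and Slc2a1 to -0.09. Hk1 was 0.00 with median centring and 0.02 with cyclic loess. Sign changed with single arrays left out for G6pc (-1.29 to 0.01), Pck2 (-0.00 to 0.28), Fbp2 (-0.41 to 0.16), Hk1 (-0.15 to 0.12), Pfkm (-0.21 to 0.15), Aldoa (-0.33 to 0.10), Ldha (-0.03 to 0.20), Gys2 (-0.18 to 0.12) and Slc2a1 (-0.38 to 0.68), none of them called. The causes were not tested.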
